A study of Mus musculus with 7 samples.

Results

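Myosin light chains are the small subunits that wrap the neck of each myosin heavy chain, and 10 of the 56748 genes listed in the count files were taken here because they encode these chains in mouse. They were chosen by symbol, through the Ensembl identifiers of the files, and fall into 5 sarcomeric genes (*Myl1*, *Myl4*, *Myl3*, *Mylpf* and *Myl2*) and 5 nonsarcomeric genes (*Myl6*, *Myl6b*, *Myl9*, *Myl12a* and *Myl12b*). The RNA came from MuSCs, the stem cells of skeletal muscle, which were isolated from the hind limb muscles of adult mice by magnetic sorting (depleted of CD31, CD45 and Sca1 positive cells, then selected for integrin α7). The paper's general methods keep such cells in growth medium with serum and bFGF. Its sequencing methods do not say whether these cells were cultured before RNA was taken. The 2 genotypes were WT (3 libraries) and homozygous Jag2sm (4 libraries), a line with a naturally occurring missense allele in an EGF repeat of the NOTCH ligand JAG2 in all of its cells, for which the sample labels write Jag2-/-. Each RNA sample was made into barcoded Nanopore direct cDNA, divided between 2 pools of all samples that were read on 2 flow cells. The reads of a sample were joined into 1 count file, called a library here. The comparison asks which light chain genes differed between the genotypes, and whether the sarcomeric chains differed from the nonsarcomeric ones.

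Conventional (class II) myosins carry 1 essential and 1 regulatory light chain on each heavy chain. Muscle sarcomeres use other light chain genes than the conventional myosins of the cytoskeleton. MYL1 is the essential chain of fast fibers, MYL4 that of embryonic muscle and atrium, and MYL3 that of slow fibers and ventricle. MYLPF is the regulatory chain of fast fibers and MYL2 that of slow fibers and ventricle. MYL6 is the essential chain of nonmuscle and smooth muscle myosin and MYL6B a related chain, while MYL9, MYL12A and MYL12B are regulatory chains whose phosphorylation switches nonmuscle and smooth muscle myosin on. Sarcomeric chains are made as myoblasts leave the cell cycle and become muscle fibers, under the MYOD family and MEF2, which bind E-boxes and A/T-rich sites.

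The promoters of *Mylpf*, *Myl2*, *Myl6b* and *Myl9* are shown since these genes represent both roles and both responses described below, with the letters before the start of *Myl1* that no annotated exon covers. Each is the 250 bases before the start of the canonical transcript in GRCm39 (45 for *Myl1*), 5′ to 3′ on the gene's strand, and capitals mark the E-box CANNTG, searched on both strands, since it reads as CANNTG on either. The windows are chr1:66984403-66984447 (minus strand) for *Myl1*, chr7:126810530-126810779 (plus) for *Mylpf*, chr5:122238598-122238847 (plus) for *Myl2*, chr10:128334773-128335022 (minus) for *Myl6b* and chr2:156616834-156617083 (plus) for *Myl9*. The windows of *Myl6b* and *Myl9* overlap exons of noncoding genes.
Myl1 upstream: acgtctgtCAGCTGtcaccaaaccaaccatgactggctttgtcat
Mylpf promoter: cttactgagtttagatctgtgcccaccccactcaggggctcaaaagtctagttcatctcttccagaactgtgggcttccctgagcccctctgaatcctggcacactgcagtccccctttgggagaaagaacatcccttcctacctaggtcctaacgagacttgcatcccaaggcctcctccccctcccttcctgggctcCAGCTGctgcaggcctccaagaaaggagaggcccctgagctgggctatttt
Myl2 promoter: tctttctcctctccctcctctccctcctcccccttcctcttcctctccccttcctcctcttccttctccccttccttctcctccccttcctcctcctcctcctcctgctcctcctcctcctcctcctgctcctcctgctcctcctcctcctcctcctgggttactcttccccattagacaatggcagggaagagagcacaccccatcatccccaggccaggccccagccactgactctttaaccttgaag
Myl6b promoter: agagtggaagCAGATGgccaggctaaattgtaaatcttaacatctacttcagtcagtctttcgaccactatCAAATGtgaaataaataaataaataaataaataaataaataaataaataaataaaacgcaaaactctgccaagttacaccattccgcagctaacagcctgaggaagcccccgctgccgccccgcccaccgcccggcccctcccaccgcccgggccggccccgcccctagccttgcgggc
Myl9 promoter: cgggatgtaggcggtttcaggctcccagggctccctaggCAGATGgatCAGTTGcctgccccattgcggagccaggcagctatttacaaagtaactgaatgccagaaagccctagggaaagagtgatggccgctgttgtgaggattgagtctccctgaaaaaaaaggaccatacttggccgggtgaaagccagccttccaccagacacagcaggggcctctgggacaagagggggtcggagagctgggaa
The E-box of *Myl1*, which begins 37 bases before the start, and that of *Mylpf*, 51 bases before, have the letters CAGCTG, which 11.9% of 21770 promoters of this length hold. *Myl12a* holds CAGCTG as well, 129 bases before its start. At least 1 E-box of any kind was found in 8 of the 10 light chain promoters and in 64.8% of all promoters. *Myl2* and *Myl12b* had none in these letters. The MEF2 motif, searched on both strands, was found in none of the 10 promoters and in 2.79% of all, and the CArG box, the site of SRF, in that of *Myl3* and in 1.40% of all. These matches are letters in a window and were not tied to the counts.

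The start of the coding sequence of *Myl12a* (chr17:71303756-71303875, minus strand) and *Myl12b* (chr17:71284107-71284226, minus strand) is shown because the 2 genes are near copies and gave very different counts. The first 120 coding bases of the canonical transcripts are printed from GRCm39, and capitals mark the 5 positions at which the 2 differ.
Myl12a: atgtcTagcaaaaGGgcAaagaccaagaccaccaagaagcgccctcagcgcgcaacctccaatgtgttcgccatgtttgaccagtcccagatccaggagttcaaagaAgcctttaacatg
Myl12b: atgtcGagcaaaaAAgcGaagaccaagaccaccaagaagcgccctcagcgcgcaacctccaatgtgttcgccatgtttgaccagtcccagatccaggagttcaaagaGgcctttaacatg
Over the whole coding sequence 498 of 516 bases (96.5%) were identical, and 168 of 172 residues. *Myl9* was identical to *Myl12a* in 85.7% and to *Myl12b* in 86.4% of aligned coding bases, and the other 42 pairs in at most 73.2%, for example 70.7% for *Myl1* and *Myl4*, 69.8% for *Mylpf* and *Myl2* and 58.4% for *Myl6* and *Myl6b*. *Myl12a* and *Myl12b* lie 1271 bases apart, and the gene *Gm49909* is annotated across both on the same strand, so that it covers 12.6% of the canonical transcript of *Myl12a* and 33.2% of that of *Myl12b*. It had 0 counts in all 7 libraries.

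Reads counted on genes numbered 187834 to 1657016 in WT and 671660 to 1937581 in Jag2sm libraries, and WT replicate 1 was the shallowest. It also had the most aligned reads outside genes, 45.1%, where the others had 20.8% to 25.7%. Unaligned reads made up 46.0% to 50.8% of Jag2sm replicates 1, 2 and 4 and 2.44% to 3.24% of the other 4 libraries, Jag2sm replicate 3 among them, and their part in the results was not tested. The labels number the libraries by batch, so that WT and Jag2sm share batches 1, 2 and 3 and Jag2sm replicate 4 is the only library of batch 4. *Jag2* itself, whose allele is a missense change that counts do not check, had 80.7, 113.8 and 115.7 CPM in WT and 42.4, 78.8, 71.9 and 77.4 CPM in Jag2sm libraries (log2 fold change -0.64, adjusted p = 0.166 by edgeR's quasi-likelihood test). The 7 tested MuSC markers gave no call in either direction. The summed levels of the MuSC list were 1239 to 1611 CPM in WT and 1253 to 1638 CPM in Jag2sm libraries. *Myod1* was the largest part of these sums. *Pax7* had 28.8, 95.7 and 80.6 CPM in WT and 100.4, 129, 172 and 125 CPM in Jag2sm libraries. Every Jag2sm library was thus above every WT library, as in 10.3% of tested genes. The log2 fold change of *Pax7* was 0.80 (adjusted p = 0.174 by edgeR's quasi-likelihood test), and that of *Vcam1* was 1.03. Those of *Cdh15* (-0.61), *Itga7* (-0.63) and *Myod1* (-0.19) were negative. Levels are given as CPM, counts per 1000000 reads on genes after edgeR's TMM scaling. No label says that the libraries came from separate animals, so p-values measure the spread between these libraries.

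The sarcomeric light chains that could be tested were lower in Jag2sm MuSCs, by 6.16-fold to 39.7-fold in mean level, or 7.20-fold to 13.8-fold without WT replicate 1, which carries the upper end (*Myl2*). Of the nonsarcomeric chains 1 was lower. Of the 5 sarcomeric genes 4 passed the filter on low counts, and all 4 (*Myl1*, *Myl4*, *Mylpf* and *Myl2*) were called lower at an adjusted p under 0.05 in edgeR's quasi-likelihood test. *Myl2* passed the filter through its WT libraries alone, with 2 or 3 counts in each Jag2sm library. Its direction was thus set by the filter and adds no support to the count. Of the 5 nonsarcomeric genes 4 passed the filter, of which 1, *Myl6b*, was called lower. Over all 9489 tested genes 4.84% were called lower. No light chain gene was called higher, where 1.42% of tested genes were, and the only light chain genes with an unadjusted p under 0.05 were the 5 called lower. The median log2 fold change was -3.33 over the 4 tested sarcomeric genes, 0.05 over the 4 tested nonsarcomeric genes and 0.05 over all tested genes. Every Jag2sm library lay below every WT library in 6 of the 8 tested genes, the 5 called and *Myl12a*, and 12.2% of all tested genes were separated in that direction. None was separated upward, as 10.3% of tested genes were. In bulk RNA, fewer cells that make a transcript and less of it per cell cannot be told apart.

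**Figure D1:**
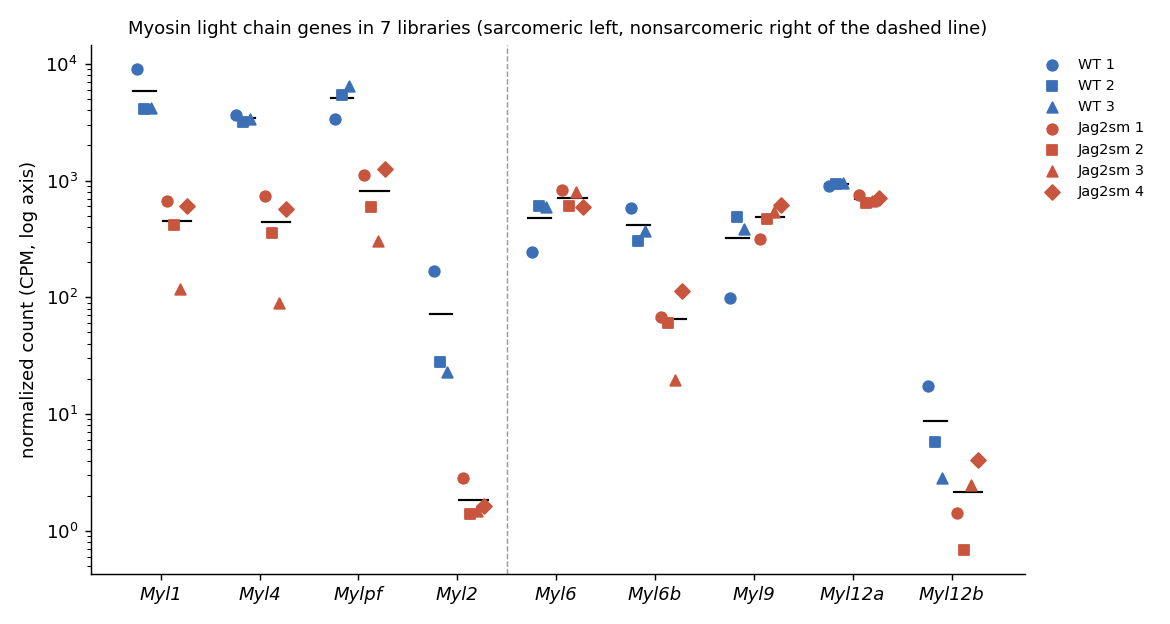
Normalized counts (CPM, log axis) of 9 light chain genes in each library, with blue symbols for WT, red symbols for Jag2sm and black lines for the means. *Myl1*, *Myl4*, *Mylpf*, *Myl2* and *Myl6b* show a wide gap between the genotypes and *Myl12a* a narrow one. *Myl3*, with 1 count in all, is not drawn.

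*Myl1* (ENSMUSG00000061816.16, chr1:66963454-66984642 in GRCm39), the essential chain of fast fibers, had 9067, 4098 and 4211 CPM in WT replicates 1, 2 and 3. In Jag2sm replicates 1, 2, 3 and 4 it had 663, 413, 117 and 600.0 CPM. The groups did not overlap, WT replicate 1 was the highest and Jag2sm replicate 3 the lowest. WT libraries averaged 5792 ± 2837 CPM (SD, n = 3) and Jag2sm libraries 448 ± 245 CPM (SD, n = 4), a 12.9-fold lower level. The log2 fold change was -3.69 ± 0.555 (SE) with an adjusted p of 0.00539 in edgeR's quasi-likelihood test, and -3.23 without WT replicate 1.

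*Myl4* (chr11:104440903-104486603), the essential chain of embryonic muscle, varied least among WT libraries of the called genes, with 3666, 3160.2 and 3386 CPM. The 4 Jag2sm libraries had 742, 355, 89.2 and 572 CPM. Again the groups did not overlap and Jag2sm replicate 3 was the lowest. The log2 fold change was -2.96 ± 0.548 (SE), with an adjusted p of 0.0115 in edgeR's quasi-likelihood test. Without Jag2sm replicate 2 the fold change was -2.86 and the adjusted p 0.0514, so the call was lost, and over all 16 alternatives the adjusted p ran from 1.04e-12 to 0.0514.

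*Mylpf* (chr7:126807207-126813470), the regulatory chain of fast fibers, had 3349, 5399 and 6409 CPM in WT libraries and 1126, 597, 301 and 1255 CPM in Jag2sm libraries. WT replicate 1, the highest for *Myl1*, was the lowest WT library for *Mylpf*, and all Jag2sm libraries were lower still. The mean fell from 5052 ± 1559 CPM (SD, n = 3) to 819.8 ± 448 CPM (SD, n = 4), 6.16-fold. The log2 fold change was -2.63 ± 0.470 (SE, adjusted p = 0.0103, edgeR's quasi-likelihood test). In GRCm39, 33.6% of its canonical transcript overlaps *Septin1* and *Tbc1d10b* on the opposite strand. *Septin1* had 14 counts and *Tbc1d10b* 333 in all 7 libraries, against 19502 for *Mylpf*.

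*Myl2* (ENSMUSG00000013936.13 on chromosome 5), the regulatory chain of slow fibers, was the scarcest of the called light chains. It had 29, 43 and 24 counts in WT replicates 1, 2 and 3, which in the shallow replicate 1 made 167 CPM and in the others 27.8 and 22.8 CPM. The Jag2sm libraries had 2, 2, 3 and 2 counts, or 2.83, 1.38, 1.48 and 1.63 CPM. The lowest WT library, at 22.8 CPM, was still far above the highest Jag2sm library. Its fitted log2 fold change of -4.89 ± 0.811 (SE) was the largest of the light chains, with an adjusted p of 0.00749 in edgeR's quasi-likelihood test, and dropping WT replicate 1 gave -3.85, dropping WT replicate 3 gave -5.49 and limma-voom gave -3.97. The pooled counts, 96 of 3004053 against 9 of 5254162 reads, gave a log2 ratio of -4.22 with a 95% exact interval of -5.39 to -3.24, which covers counting error only.

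*Myl3*, the essential chain that pairs with MYL2 in slow fibers, was at the limit of detection, with 1 count in WT replicate 3 and 0 in the other 6 libraries. The pooled depth limits a gene with 0 counts to 0.571 CPM in Jag2sm libraries. *Myl7*, the atrial regulatory chain, and *Myl10* had 0 counts in every library, which allows up to 0.999 CPM in WT.

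*Myl6b* (chr10:128330020-128334772) was placed among the nonsarcomeric chains here, a placement that was not tested, and was the only 1 of them called lower. It had 576, 301 and 373 CPM in WT libraries and 67.9, 60.1, 19.7 and 114 CPM in Jag2sm libraries. The groups did not overlap, and as for *Myl1*, *Myl4* and *Mylpf* the lowest library was Jag2sm replicate 3. The log2 fold change was -2.66 ± 0.468 (SE), close to that of *Mylpf*, with an adjusted p of 0.00959 in edgeR's quasi-likelihood test. A noncoding gene on the opposite strand, *A430046D13Rik*, overlaps 51.8% of its canonical transcript and had 43 counts in all, against 1273 for *Myl6b*.

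*Myl6* (chr10:128320267-128330014) ends its annotated span 5 bases from that of *Myl6b*, on the same strand, but was not called. Its levels were 242, 607 and 591 CPM in WT libraries and 827, 607, 789.9 and 593 CPM in Jag2sm libraries. The shallow WT replicate 1 lay far below the rest, WT replicate 3 lay just below the lowest Jag2sm library and WT replicate 2 within the Jag2sm range, so the groups overlapped. The log2 fold change was 0.53 ± 0.320 (SE, adjusted p = 0.400 by edgeR's quasi-likelihood test), with a 95% interval of -0.10 to 1.15, and it was 0.22 without WT replicate 1.

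*Myl9*, the regulatory chain best known from smooth muscle, had 98.0, 486 and 382 CPM in WT libraries and 315, 469.9, 543 and 623 CPM in Jag2sm libraries. The groups overlapped, and WT replicate 1 was again the lowest. The log2 fold change was 0.55 ± 0.425 (SE, adjusted p = 0.528 by edgeR's quasi-likelihood test), with a 95% interval of -0.29 to 1.38, and 0.16 without WT replicate 1. The noncoding gene *5730471H19Rik* overlaps 12.2% of its canonical transcript on the opposite strand and had 98 counts in all, against 3940 for *Myl9*.

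*Myl12a* (chr17:71299231-71310871), the main nonmuscle regulatory chain by reads, was the steadiest of the 10 genes. It had 893, 931 and 959 CPM in WT libraries and 747, 644, 664 and 712 CPM in Jag2sm libraries. All 4 Jag2sm libraries were below all WT libraries, by a mean of 928 ± 32.8 CPM (SD, n = 3) against 692 ± 46.5 CPM (SD, n = 4), but the log2 fold change of -0.42 ± 0.210 (SE) did not pass edgeR's quasi-likelihood test (adjusted p = 0.299). Scaling by library size alone gave -0.26, a setting that moved the median of all tested genes from 0.05 to 0.21.

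*Myl12b*, its near copy, had 3, 9 and 3 counts in WT and 1, 1, 5 and 5 counts in Jag2sm libraries, and did not pass the filter on low counts. Those counts made 17.3, 5.82 and 2.85 CPM in WT and 1.41, 0.691, 2.46 and 4.08 CPM in Jag2sm libraries, and the groups overlapped. The log2 ratio of the pooled counts was -1.13 with a 95% exact interval of -2.35 to 0.07. *Myl12a* had 2606 and 3682 counts in the same libraries. Reads that htseq finds on more than 1 gene are set aside in its default mode, and 8.05% to 9.74% of aligned reads were recorded as ambiguous. A further 9.80% to 14.3% were recorded as too low in alignment quality. Whether either loss or the likeness of the coding sequences set the level of *Myl12b* was not tested.

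**Figure D2:**
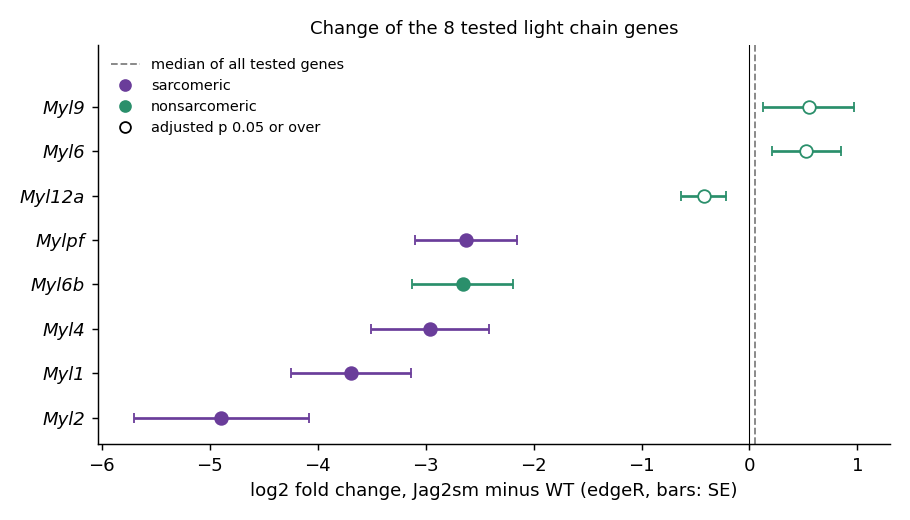
Log2 fold change (Jag2sm minus WT) of the 8 tested light chain genes from edgeR, with bars for the SE, filled symbols for adjusted p under 0.05 and a dashed line at the median of all tested genes, 0.05. The 4 sarcomeric genes and *Myl6b* lie between -4.89 and -2.63, and the other 3 between -0.42 and 0.55.

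Within the 3 batches that hold both genotypes, each of the 5 called genes was lower in the Jag2sm library of every batch. Since these genes did not overlap between the genotypes, any pairing of libraries would give that direction, and only the sizes are new here. The log2 difference of normalized counts was -3.77, -3.31 and -5.17 in batches 1, 2 and 3 for *Myl1*, and -1.57, -3.18 and -4.41 for *Mylpf*. It lay between -5.25 and -2.30 for *Myl4*, between -5.89 and -3.94 for *Myl2* and between -4.24 and -2.32 for *Myl6b*. *Myl12a*, which did not overlap either, was lower in all 3 batches as well, with differences between -0.53 and -0.26. For *Myl6* the difference was 1.77, -0.00059 and 0.42 in batches 1, 2 and 3, and for *Myl9* it was 1.69, -0.05 and 0.51, largest for both in the batch of WT replicate 1.

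The 10 genes together took 1.40% to 1.67% of all reads on genes in WT and 0.265% to 0.473% in Jag2sm libraries. Of these light chain reads, the sarcomeric genes gave 89.9% (95% Wilson interval 88.8% to 90.9%), 84.5% (84.0% to 84.9%) and 85.9% (85.3% to 86.4%) in WT replicates 1, 2 and 3. In Jag2sm replicates 1, 2, 3 and 4 they gave 56.4% (54.7% to 58.1%), 43.4% (42.0% to 44.9%), 20.1% (19.05% to 21.2%) and 54.3% (53.0% to 55.6%). All Jag2sm libraries were below all WT libraries and spread far more widely, beyond their counting intervals. WT libraries averaged 86.7% ± 2.81 (SD, n = 3) and Jag2sm libraries 43.6% ± 16.6 (SD, n = 4), a difference of -43.2 percentage points, and it was -35.4 points without Jag2sm replicate 3. Within batches 1, 2 and 3 the difference was -33.5, -41.1 and -65.8 points. The summed sarcomeric level was 14321 ± 1800.4 CPM in WT and 1709.6 ± 959 CPM in Jag2sm libraries, 8.38-fold lower. The summed nonsarcomeric level was 2155 ± 284 CPM and 1951 ± 119 CPM, and there the groups overlapped.

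**Figure D3:**
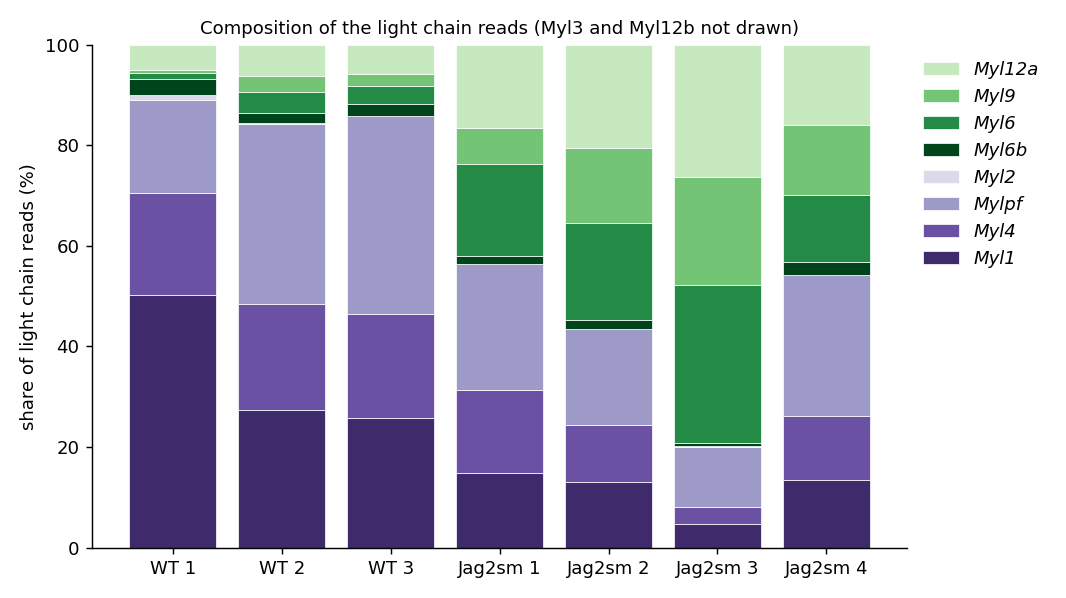
Share of light chain reads (%) from each gene in each library, with sarcomeric genes in purple and nonsarcomeric genes in green. Purple makes up 84.5% to 89.9% of the bars in WT and 20.1% to 56.4% in Jag2sm libraries.

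Essential and regulatory chains were also counted apart. *Myl1*, *Myl4* and *Myl3* gave 88.7% to 94.0% of essential chain reads in WT and 20.3% to 62.4% in Jag2sm libraries. *Mylpf* and *Myl2* gave 77.7% to 82.7% of regulatory chain reads in WT and 20.0% to 51.5% in Jag2sm libraries. *Myl6* made up 1.34%, 4.04% and 3.62% of all light chain reads in WT libraries and 18.4%, 19.3%, 31.3% and 13.3% in Jag2sm libraries, while its own level was not called. Essential chains made up 75.0%, 54.4% and 52.4% of light chain reads in WT and 40.2% to 51.2% in Jag2sm libraries.

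Per kilobase of canonical transcript, the order of mean levels in WT was *Mylpf* (6596 CPM per kb), *Myl1* (4900.2), *Myl4* (3609.8), *Myl6* (689.6), *Myl6b* (333), *Myl12a* (254), *Myl9* (233), *Myl2* (87.6), *Myl12b* (3.89) and *Myl3* (0.336). The ranges of the first 3 overlapped from neighbour to neighbour, and a gap without overlap separated *Myl4* from *Myl6*. From *Myl6* down to *Myl2* each neighbouring pair overlapped. In Jag2sm MuSCs the order was *Mylpf* (1070.2 CPM per kb), *Myl6* (1012), *Myl4* (466), *Myl1* (379), *Myl9* (352), *Myl12a* (189), *Myl6b* (52.4), *Myl2* (2.21), *Myl12b* (0.971) and *Myl3* (0). *Mylpf* and *Myl6* overlapped there, as did *Myl4*, *Myl1* and *Myl9* from neighbour to neighbour. Lengths are those of the annotated transcripts, and which isoform the reads came from was not analysed here. The order depends on this scaling. In CPM without it, where each long read counts once, *Myl1* (5792 CPM) stood above *Mylpf* (5052 CPM) in WT, with ranges that overlapped, and *Myl12a* (928 CPM) above *Myl6* (480.0 CPM), with ranges that did not.

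Ratios within a library need no scaling between libraries, and 5 of them were tested with two-sided exact permutation tests over the 35 ways to divide 7 libraries into 3 and 4, for which 0.0286 is the smallest p possible. A pseudocount of 0.5 was added to each count. *Myl1* to *Myl6*, the fast essential chain against the nonmuscle one, had log2 ratios of 5.21, 2.75 and 2.83 in WT libraries and -0.32, -0.55, -2.76 and 0.02 in Jag2sm libraries. The mean difference was -4.50, with p = 0.0286 (exact permutation test) and an adjusted p of 0.0571 over the 4 ratios planned and 0.0476 over all 5. The value over 5 is lower only because the ratio added after the counts were seen also had the smallest p possible. It therefore adds no support to the planned ratios. The mean difference was -3.70 without WT replicate 1 and -3.88 without Jag2sm replicate 3. *Myl6b* to *Myl6*, the neighbouring genes, had log2 ratios of 1.24, -1.01 and -0.66 in WT and -3.59, -3.33, -5.31 and -2.37 in Jag2sm libraries. The mean difference of -3.51 had the same p values in the exact permutation test, and was -2.81 without WT replicate 1.

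*Mylpf* to *Myl12a*, the regulatory pair, was added after the counts were seen because *Myl12b* had few. Its log2 ratio was 1.90, 2.54 and 2.74 in WT and 0.59, -0.11, -1.14 and 0.82 in Jag2sm libraries. The groups did not overlap, and the mean difference of -2.35 had p = 0.0286 (exact permutation test, adjusted p = 0.0476 over 5). *Mylpf* to *Myl12b*, the pair first planned, overlapped between the groups with a mean difference of -1.07 (p = 0.371, exact permutation test, adjusted p = 0.371), on 15 and 12 counts of *Myl12b*. Dropping WT replicate 1 gave -2.06, dropping WT replicate 3 gave -0.29 and thinning to the smallest library gave -2.46.

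The ratio of the 2 main sarcomeric essential chains was compared in the same way. *Myl1* to *Myl4* had log2 ratios of 1.31, 0.37 and 0.31 in WT and -0.16, 0.22, 0.39 and 0.07 in Jag2sm libraries. The groups overlapped, with a mean difference of -0.54 (p = 0.114, exact permutation test, adjusted p = 0.152 over 4), and it was -0.22 without WT replicate 1. Thinned to the depth of the smallest library, the difference was -0.75 with p = 0.0286 (exact permutation test). *Myl6b* to *Myl1*, given without a test, had log2 ratios of -3.97, -3.77 and -3.50 in WT and -3.28, -2.77, -2.55 and -2.39 in Jag2sm libraries, so *Myl6b* took a larger part beside *Myl1* in every Jag2sm library.

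**Figure D4:**
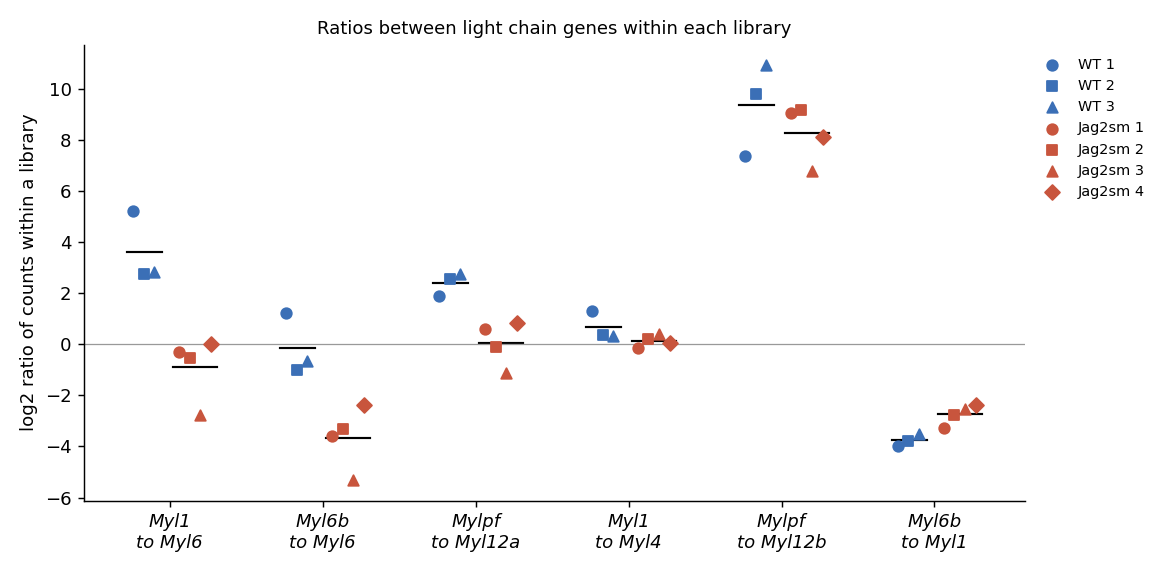
Log2 ratio of counts between pairs of light chain genes within each library, with blue symbols for WT, red symbols for Jag2sm and black lines for the means. *Myl1* to *Myl6*, *Myl6b* to *Myl6* and *Mylpf* to *Myl12a* are lower in every Jag2sm library, and *Myl1* to *Myl4* and *Mylpf* to *Myl12b* overlap.

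Light chains work only on heavy chains, so the heavy chain genes were counted beside them. Where 4.84% of all tested genes were called lower by edgeR's quasi-likelihood test, all 5 tested genes of 9 sarcomeric heavy chain genes were. Their median log2 fold change was -3.88 against 0.05 over all tested genes. They were *Myh4* (-5.55) and *Myh1* (-3.84) of fast fibers, *Myh7* (-5.05) of slow fibers, *Myh8* (-3.88), the perinatal gene, and *Myh3* (-3.21), the embryonic gene. *Myh4* and *Myh7* passed the filter on low counts through their WT libraries alone, so they could only be called lower. WT replicate 1 carried *Myh7*, at 254 CPM against 27.8 and 20.9 CPM in WT replicates 2 and 3. *Myh3* was the most abundant of the 5, at 2261 ± 322 CPM (SD, n = 3) in WT against 245 ± 138 CPM (SD, n = 4) in Jag2sm libraries. Of 4 nonmuscle and smooth muscle heavy chain genes 2 were tested and neither was called. *Myh9*, the partner of the nonmuscle chains, had 259, 335 and 230.5 CPM in WT and 382, 623, 475 and 558 CPM in Jag2sm libraries, higher in all 4, with a log2 fold change of 0.88 and an adjusted p of 0.0681 in edgeR's quasi-likelihood test. *Myh10* had 0.40 (adjusted p = 0.301 by edgeR's quasi-likelihood test), also with every Jag2sm library above every WT library. Of all tested genes, 10.3% were separated in that direction.

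Among 21 genes for light chain kinases, calmodulin and the myosin phosphatase, 17 were tested and 1 was called, a share near the 4.84% of all tested genes called lower. This was *Mylk4*, with a log2 fold change of -3.22 (adjusted p = 0.00285, edgeR's quasi-likelihood test). *Mylk4*, a member of the light chain kinase family found in striated muscle, had 340.1, 149 and 184 CPM in WT and 15.6, 28.3, 11.3 and 35.9 CPM in Jag2sm libraries. *Mylk*, the kinase of smooth and nonmuscle cells, was scarce, with 16 counts in WT and 10 in Jag2sm libraries, and was not tested. *Mylk2*, the skeletal muscle kinase, had 22 and 23 counts and a log2 fold change of -0.68 (adjusted p = 0.639 by edgeR's quasi-likelihood test). The median over the 17 genes was -0.02.

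Where 4.84% of all tested genes were called lower by edgeR's quasi-likelihood test, 2 of 4 chaperones of myosin were. These were *Unc45b* (log2 fold change -3.57, adjusted p = 0.00152), which folds muscle myosin heads, and *Smyd1* (-3.29, adjusted p = 0.00414), a muscle methyltransferase that binds myosin. *Unc45b* passed the filter on low counts through its WT libraries alone, so it could only be called lower. *Unc45a*, the general form, had 0.18 and *Hsp90aa1* 0.41, neither called. None of the 9 tested genes of 13 in a list of SRF and MRTF contractile targets and factors was called, with a median of 0.32. *Acta2*, the smooth muscle actin made by cultured myoblasts, was among them at 1583 ± 523 CPM (SD, n = 3) in WT against 1329.8 ± 676 CPM (SD, n = 4) in Jag2sm libraries.

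Markers of differentiated muscle moved with the sarcomeric light chains. All 11 tested genes of a list of 13 were called lower by edgeR's quasi-likelihood test, where 4.84% of all tested genes were. The largest log2 fold changes were those of *Atp2a1* (-3.79), the calcium pump of fast fibers, *Actn2* (-3.66) and *Ttn* (-3.39) of the sarcomere's frame, the fast troponins *Tnnt3* (-3.30) and *Tnni2* (-3.30), and *Acta1* (-3.28), the skeletal actin. The summed level of the list was 17307 to 35059 CPM in WT and 747 to 4621 CPM in Jag2sm libraries. Among myogenic factors, 5 of 7 were called lower by edgeR's quasi-likelihood test, with a median of -1.23. They were *Myf6* (-4.33), *Mef2c* (-3.83), *Myog* (-2.33), *Mef2a* (-1.23) and *Mef2d* (-1.06). *Myf6* passed the filter on low counts through its WT libraries alone, so it could only be called lower. *Myog*, which drives terminal differentiation, had 2894, 2222 and 2851 CPM in WT and 711, 387, 110.4 and 906 CPM in Jag2sm libraries, and its lowest library was Jag2sm replicate 3, as for *Myl1*, *Myl4*, *Mylpf* and *Myl6b*. *Myod1* had -0.19 (adjusted p = 0.696) and was not called. Whether the samples differed in how many cells had begun to differentiate was not tested.

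Markers of other cell types that use the nonsarcomeric chains were mostly near 0. Of 11 mural and smooth muscle markers 5 were tested and 1, *Abcc9*, was called lower (-3.71), where 4.84% of all tested genes were. *Abcc9* passed the filter on low counts through its WT libraries alone, so it could only be called lower. The summed level was 1084 to 1974 CPM in WT and 857 to 2311 CPM in Jag2sm libraries, most of it *Acta2*. *Myh11*, the smooth muscle heavy chain, had 0 counts in WT and 2 in Jag2sm libraries, and *Tagln* had 10 and 7. *Rgs5* was at 11.5 to 14.2 CPM in WT, at 645 CPM in Jag2sm replicate 1 and at 25.3 to 40.4 CPM in the other 3 Jag2sm libraries, higher in all 4 but not called (log2 fold change 3.73, adjusted p = 0.135 by edgeR's quasi-likelihood test). The summed level was at most 14.1 CPM for 6 endothelial, 45.6 CPM for 6 fibro-adipogenic, 5.69 CPM for 7 immune and 5.66 CPM for 4 glial markers, with *Kdr*, *Lum*, *Ptprc*, *Adgre1*, *Lyz2* and *C1qa* at 0 throughout. Of 5 tenocyte markers only *Scx* was tested, and it was called lower (-1.34). The summed level was 115 to 128 CPM in WT and 30.1 to 76.6 CPM in Jag2sm libraries, most of it *Scx*. *Tnmd*, *Mkx*, *Thbs4* and *Fmod* had 1, 0, 14 and 3 counts in WT and 1, 8, 7 and 0 in Jag2sm libraries. The part of these cells in the light chain results was not tested.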

How the data were processed

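RNA from 3 WT and 4 homozygous Jag2sm MuSC samples was read as Nanopore direct cDNA. According to their methods, the authors called bases with dorado, used minimap2 2.17 for alignment to GRCm39 and htseq for counting, and deposited raw counts per gene and library without normalization. The annotation release, strand setting and version of htseq are not given in the sources used here. The authors' DESeq2 table of the comparison (means, fold changes and p-values) was not used. The 5 summary lines of each count file were kept out of library sizes and tests. Identifiers were matched to GENCODE M39, of which 56017 of 56748 were found, and overlapping genes were found with bedtools 2.31.1.

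The test was run in edgeR 4.0.16 under R 4.3.3 (filterByExpr with a minimum count of 10 and minimum total of 15, TMM, glmQLFit and glmQLFTest without covariates) over 9489 genes, with Benjamini-Hochberg adjustment over all of them and calls at an adjusted p under 0.05. The SE is the size of the log2 fold change divided by the square root of F, and its 95% interval is 1.96 SE to either side. Promoter letters and coding sequences were read from GRCm39, and coding sequences were aligned with Biopython 1.88. Intervals of shares are Wilson, those of count ratios exact (SciPy 1.17.1), and the limit of 0 counts is 3 counts of the total. They cover counting error only. Depth ran from 187834 to 1937581 reads on genes, so 3 counts make 1.55 to 16.0 CPM in a single library. The fits were also run on simulated counts with the same dispersion for every gene. That run cannot check them at the uneven spread of these libraries.

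The labels give a batch number equal to the replicate number, which pairs replicates 1, 2 and 3. Deviations from the genotype means correlated between libraries of a number at only 0.0740, 0.0144 and 0.0539, and the number was used as a block in an alternative fit. No 2 libraries of a genotype agreed within sampling noise (chi-square per degree of freedom 2.12 to 10.7). Alternatives were DESeq2 1.42.0, limma-voom (limma 3.58.1), the size factors of DESeq2, library size alone, 2 other filters, a robust fit, thinning to the smallest library and each library left out. The light chain genes, the other lists and the tests were chosen with earlier results of these data known. All 10 light chains were named, and of every other list its called genes, up to 6, and genes with a defining role.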

Additional observations from a re-analysis of the deposited data

Results flagged for a closer look

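Of 27 quantities checked for a library far from the others of its group among the 4 Jag2sm libraries, 1 stood apart, where chance alone gives about 1 in 20. The summed level of the 4 glial markers was 5.66 CPM in Jag2sm replicate 1, against 1.48 to 2.07 CPM in the other 3. No light chain level, ratio or share had such a library among the 4, and the 3 WT libraries were too few for this check.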

How the results depend on the processing

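Of 126 refits of the 8 tested light chain genes, 125 kept direction and side of the threshold, none reversed, and 1 lost the call (*Myl4*, adjusted p = 0.0514 without Jag2sm replicate 2, edgeR's quasi-likelihood test, within a range of 1.04e-12 to 0.0514). *Myl2* could not be tested at 10 counts in every library or after thinning, since too few counts were left. The sarcomeric genes called lower numbered 3 or 4, the nonsarcomeric ones 1 and those called higher 0 in all 16 alternatives. With the replicate block, which pairs batches 1 to 3, *Myl1* had -4.07, *Mylpf* -3.07 and *Myl6b* -3.19, genes called lower numbered 448 and higher 117, and the block changed no call of a light chain gene. DESeq2, which tested more genes, had a median of -0.18 over all genes, against 0.05. Genes called higher (135) numbered 206 with DESeq2, 241 with library size alone, 468 with no filter, 43 with 10 counts in every library, 56 after thinning and 20 to 220 with 1 library left out (WT replicate 2 left 33 and WT replicate 3 left 20 when dropped, and Jag2sm replicates 1, 2 and 3 left 83, 30 and 220). Genes called lower (459) numbered 780 with no filter, 231 with 10 counts in every library, 200 after thinning and 221 to 466 with 1 library left out, the lowest without Jag2sm replicate 2. Filters and thinning change how many genes are tested, and otherwise the cause was not tested. With 1 library left out, the difference in log2 ratio ran from -4.92 to -3.70 for *Myl1* to *Myl6*, from -3.94 to -2.81 for *Myl6b* to *Myl6* and from -2.61 to -1.96 for *Mylpf* to *Myl12a*. There 0.0667 or 0.10 is the smallest p that the exact permutation test can give. For *Myl1* to *Myl4* it was -0.75 after thinning (p = 0.0286, exact permutation test). The sarcomeric share differed by -47.5 to -35.4 points with 1 library left out. Depth limits *Myl3*, *Myl12b* and *Myl2* most, with 1, 27 and 105 counts in all libraries.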
